A study of Mus musculus with 8 samples.

Results

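N6-methyladenosine (m6A) peaks that crowd into single transcripts were examined: all peaks of genes with 10 or more peaks in at least 1 of the deposited peak lists. The genes were chosen by counting lines per gene identifier in each list, and 10 genes that also reached this count were set aside and are not described here. This left 99 genes, all protein coding, of 12413 genes with a peak, and 1848 of 52954 listed peaks (1105 of 29586 control peaks and 743 of 23368 PTC peaks). Of the 99 genes, 17 reached 10 peaks in both lists, 77 in the control list only and 5 in the PTC list only. With the genes set aside, 109 genes reached the count, 0.878% of genes with a peak.

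The study used mouse primary T cells that were left as controls or treated with an agent the labels call PTC, for 24 h. Each condition had 2 samples of RNA bound by the m6A antibody and 2 input samples, 8 samples in 4 groups of 2. The series title names the Polycomb protein BMI1 and immunotherapy of liver cancer. Genotype, strain and age of the mice are not given, nor what PTC is, nor if any samples share an animal or culture. The deposited lists give 1 set of peaks per condition, so there is no spread between samples and no test between conditions, and the intervals below are 95% intervals that cover counting error only. Read depth per sample is unknown. In the authors' deposited table, 36.07% of control reads and 33.03% of PTC reads lay in peaks. Of 12 T cell marker genes, 12 had a peak in both lists, and none of them is among the 99 genes. Peaks were also listed for 9 of 10 B cell markers in both lists, for 6 (control) and 8 (PTC) of 10 myeloid markers, and for 1 (control) and 6 (PTC) of 8 erythroid and platelet markers. The part of other cells in the results below was not tested.

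m6A is placed on nascent transcripts by a methyltransferase complex that prefers the consensus DRACH, whose D excludes C, whose R is a purine and whose H excludes G. GGACT is among its most favoured forms. Reader proteins that bind m6A alter the splicing, translation and decay of the transcript. Known m6A sites concentrate near stop codons and in long internal exons. Peaks in immunoprecipitated RNA are regions, not single bases, and 1 peak can hold several methylated adenosines. A peak that crosses a splice junction is listed as several exon blocks under 1 entry.

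The sequences below show the consensus inside peaks that both lists hold, in 12 of the genes that the text turns on. Each is the GGACT nearest the middle of the gene's strongest control peak that holds one and has a PTC peak over it. Sequences were read 5′ to 3′ along GENCODE M21 transcripts (GRCm38), with GGACT in capitals.
Macf1: atggaaacagcaGGACTtatggaccctga
Kmt2a: ttcagatatcatGGACTttgtactaaaga
Kmt2c: gctgctgtcagaGGACTctgaggtggcat
Kmt2d: caacccatccagGGACTccaaagccccag
Atrx: gaaaaaagaagaGGACTcttctgaagatg
Mga: gaaagatctgaaGGACTcaagcatagaga
Birc6: catttgttggtaGGACTgcggacatgctc
Rnf213: gcacctacatgaGGACTctggcctgcata
Zfp865: acgcagcggccgGGACTccgcggccggtg
Gabpb2: agaccctaacaaGGACTccctgaggacat
Mbnl1: aaatagaacaagGGACTttttgttgataa
Syncrip: gaactaatacttGGACTttgttatgaatt

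In these 12 genes the motif lay inside a peak of both lists. The Macf1 stretch is chr4:123473579-123473607 (minus strand), and those of the histone methyltransferase genes are chr9:44820465-44820493 (minus) for Kmt2a, chr5:25373254-25373282 (minus) for Kmt2c and chr15:98844084-98844112 (minus) for Kmt2d. The stretches of Atrx, at chrX:105875739-105875767 (minus), and of Mga, at chr2:119964113-119964141 (plus), are coding sequence too. Coding as well are those of Birc6 at chr17:74579917-74579945 (plus), of Rnf213 at chr11:119441376-119441404 (plus) and of Zfp865 at chr7:5030303-5030331 (plus). The remaining 3 lie in a 3′ UTR, for Gabpb2 at chr3:95187090-95187118 (minus), for Mbnl1 at chr3:60628640-60628668 (plus) and for Syncrip at chr9:88454073-88454101 (minus). The Kmt2a control peak held 6 GGACT, the Macf1 control peak 5, the Atrx control peak 4 and the Rnf213 control peak 3.

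The 99 genes had long transcripts. Their joined exons (all annotated exons of a gene merged and laid end to end) had a median length of 14158 nt and ranged from 4406 nt in Egr3 to 33312 nt in Phip. The median was 7420 nt in 1701 genes with at most 5 to 9 peaks in a list and 3974 nt over all genes with a peak. The genes had a median of 24 merged exons, against 13 and 8. Peaks were also denser: 0.759 control and 0.511 PTC peaks per kb of joined exon over the 99 genes, against 0.494 and 0.390 over all genes. Control peaks covered 31.2% of the joined exons and PTC peaks 22.95%, against 20.96% and 16.9% over all genes. Since the rule counts peaks, length, density and cover follow in part from it and are given as a description. Among the 99 genes, Spearman's rho of peak number with joined exon length was 0.444 for control and 0.277 for PTC peaks, across genes that share the same libraries. Over 12404 genes the same rho was 0.546 and 0.447.

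The threshold falls inside a smooth tail. Just inside it, 46 genes had 10 peaks as their highest count, with 452 control and 298 PTC peaks and a median joined exon length of 12240.5 nt. Just outside it, 81 genes had 9, with 714 control and 476 PTC peaks and 11631 nt. The share of control peaks overlapped by a PTC peak was 57.5% at 10 and 54.5% at 9, and the share of PTC peaks overlapped by a control peak was 87.6% and 83.2%.

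**Figure D1:**
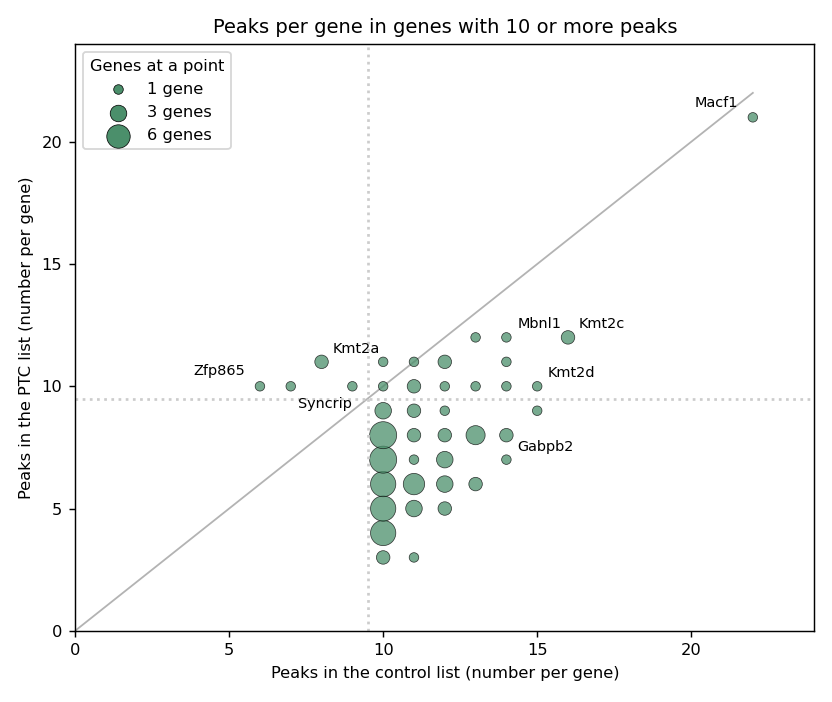
Number of control peaks (x axis) against number of PTC peaks (y axis) for each of the 99 genes. Circle area gives the number of genes at a point, dotted lines mark the threshold of 10 peaks and the grey line marks equal counts. Most circles lie below the line, Macf1 stands apart at 22 and 21 peaks, and Zfp865, Syncrip and Kmt2a are among the 6 genes above it.

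A gene had 6 to 22 control peaks (median 11) and 3 to 21 PTC peaks (median 7). More control than PTC peaks were listed in 91 of the 99 genes and more PTC peaks in 6, with equal counts in Heg1 (11 in each) and Lcorl (10 in each). Over all genes with a peak, 45.5% had more control peaks and 20.9% more PTC peaks. These counts are what the rule used, and 94 of the 99 genes reached the threshold through the control list, which is also the longer one, so the direction is given as a description. In 28 genes the control list held at least 2 times as many peaks, and in 13 the counts differed by at most 1. When only the strongest control peaks were kept, to make both lists equally long, 71 genes had more control and 19 more PTC peaks. At that length 28.1% of all genes had more control and 31.3% more PTC peaks.

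Macf1, a giant protein that links microtubules to actin filaments, had the most peaks of all, 22 in control and 21 in PTC, on 31402 nt of joined exons. Its control peaks covered 16278 nt and its PTC peaks 11538 nt, of which 10848 nt were shared. The widest of them, a control peak of 5519 nt in 3 blocks at chr4:123471071-123483732, overlapped 4 separate PTC peaks of Macf1. Similar peak numbers in both lists thus stood beside a wider covered stretch in control. Of the Macf1 peaks, 15 of 22 control and 19 of 21 PTC peaks were overlapped by the other list.

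Chromatin regulators were the largest named group among the genes. Their list was also the longest, with 72 genes. Of 71 listed chromatin regulators with a peak, 18 were among the 99, with 211 control and 153 PTC peaks. Of all genes with a peak, 0.878% reached the count, with the genes set aside. The same share is the background of the lists below. More control peaks were listed in 16 of them and more PTC peaks in Kmt2a and Kmt2e, against 91 and 6 of the 99 genes. The histone H3 lysine methyltransferases Kmt2c (16 control and 12 PTC peaks) and Kmt2d (15 and 10) led by number. Atrx, a chromatin remodeller of heterochromatin and telomeres, had 13 and 12. The DNA demethylases Tet2 (10 and 4) and Tet3 (11 and 6) and the methyltransferases Nsd1 (10 and 6), Nsd2 (13 and 8) and Nsd3 (13 and 8) had more control peaks throughout. Peaks of the chromatin group were overlapped at 59.2% in control and 84.3% in PTC, near the values over the 99 genes given below.

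A list of ubiquitin pathway genes had 8 among the 99, of 40 with a peak, and these include the ligases Birc6, Cbl, Herc1, Mycbp2, Rnf213 and Trip12. They held 93 control and 48 PTC peaks, and each of these 8 had more control peaks, as did 91 of the 99 genes. The list does not hold every ligase: Ube3a, which is among the 99 genes but not in the list, had 10 control and 11 PTC peaks. Trip12, a HECT-type ligase, had 13 control and 6 PTC peaks, and Rnf213, a very large RING ligase, had 15 and 9. PTC peaks of the group were overlapped at 93.8% and control peaks at 48.4%. In Trip12, Rnf213 and Birc6 every PTC peak had a control peak over it (6, 9 and 7 peaks), while 7 of 13, 8 of 15 and 6 of 12 control peaks had a PTC peak.

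The other lists were trafficking, cytoskeleton and membrane genes (10 of 50, 123 control and 85 PTC peaks), signalling genes (7 of 64, 93 and 66), transcription factors (5 of 69, 60 and 34), RNA processing (4 of 54, 47 and 32) and DNA damage (2 of 33, 27 and 18). Each gene of these 5 groups among the 99 had more control than PTC peaks, as did 91 of the 99 genes, so this direction is not particular to the groups. Zfp865, Syncrip and Phf20l1, which had more PTC peaks, are in no list. Examples are the dynein motor chain Dync1h1 (13 and 6), the spectrin chain Sptan1 (14 and 10), the kinase Wnk1, which regulates ion transport (16 and 12), and Foxp1, a factor of T cell quiescence (12 and 5). The splicing regulator Mbnl1 had 14 and 12 peaks and the homologous recombination protein Brca2 13 and 10. In all, 52 of the 99 genes were in at least 1 list and 47 in none. These groups were written with earlier results of the same data known. Their counts are thus not independent evidence of a direction, nor of a role being frequent among the 99 genes.

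In the 6 genes with more PTC peaks, single control peaks often faced several PTC peaks: at 3 sites in Zfp865 and in Syncrip, at 2 in Kmt2a and at 1 in Phf20l1, with none in Kmt2e and Ube3a. Zfp865, a zinc finger protein, had 6 control and 10 PTC peaks, Kmt2a 8 and 11, Syncrip, an RNA-binding protein, 7 and 10, Phf20l1, a reader of methylated lysine, 8 and 11, Kmt2e 9 and 10 and the ubiquitin ligase Ube3a 10 and 11. Yet in 5 of the 6 the control peaks covered more of the transcript: 3629 against 3544 nt in Zfp865, 10021 against 8885 nt in Kmt2a, 4056 against 3250 nt in Syncrip, 4079 against 3749 nt in Kmt2e and 3788 against 3697 nt in Ube3a. Phf20l1 was the exception, with 4385 nt in control and 4867 nt in PTC. In Kmt2a a control peak of 4198 nt faced PTC peaks of 2849 and 1020 nt. In Syncrip a control peak of 1321 nt overlapped PTC peaks of 151, 211 and 571 nt, and 1 PTC peak listed for Gm20537, a gene model on the same strand whose reads cannot be told apart from those of Syncrip. The opposite case, more control peaks with more covered nt in PTC, occurred in 4 genes: Phip, Ifi203, Arhgap31 and Pitpnc1. Over the 99 genes, control exceeded PTC by 1.49 times in peaks and 1.36 times in covered nt, against 1.27 and 1.24 times over all genes. As most of the 99 genes were chosen through their number of control peaks, both ratios follow in part from the rule.

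**Figure D2:**
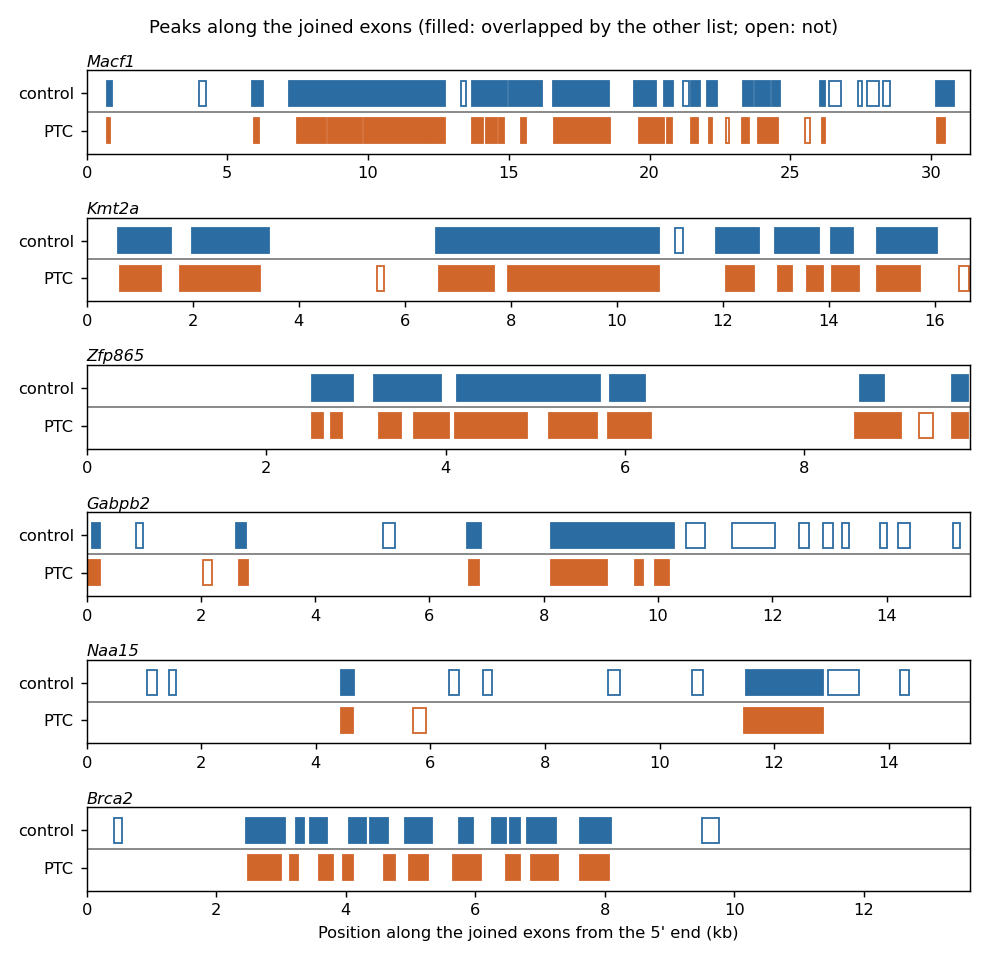
Peaks of 6 genes along their joined exons (x axis, kb from the 5′ end), control above and PTC below, with filled boxes for peaks overlapped by the other list and open boxes for peaks that are not. Single wide control boxes stand over several PTC boxes in Macf1, Kmt2a and Zfp865, open control boxes fill the 3′ end of Gabpb2, and Naa15 has 3 PTC boxes, of which 2 are filled.

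Overlap between the lists was counted when peaks shared at least 1 bp on the same strand. Of the 1105 control peaks, 626 had a PTC peak over them, 56.7% (53.7 to 59.6), against 60.2% over all control peaks. Of the 743 PTC peaks, 642 had a control peak over them, 86.4% (83.7 to 88.8), against 78.8% over all PTC peaks and 84.6% in genes with at most 5 to 9 peaks. The control share lies slightly below that of all control peaks and close to the 58.8% in genes with at most 5 to 9 peaks. The PTC share lies above that of all genes and close to that of genes with somewhat fewer peaks. Most of the genes were chosen through their number of control peaks. A PTC peak is then more likely to meet a control peak by the rule itself, so these comparisons are given as a description. None of the peaks was overlapped only by a peak of another gene. In nt, 62.1% of the covered control stretch and 84.5% of the covered PTC stretch were shared.

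Joining control and PTC peaks that overlap each other gave 1142 sites. Peaks that overlap only within a list were not joined, so a site in 1 list only is 1 peak. Both lists shared 562 of them (49.2%, 46.3 to 52.2), 479 were in the control list only (41.9%) and 101 in the PTC list only (8.84%). Over all genes the same shares were 49.3%, 35.7% and 15.02%. Of the shared sites, 454 paired 1 control with 1 PTC peak (80.8%), 38 set several control peaks against 1 PTC peak, 52 set 1 control peak against several PTC peaks and 18 held several of both. Most of these genes were chosen through their number of control peaks. The shares of sites in 1 list only thus follow in part from the rule and are given as a description. The same holds for the excess of the control list, which had 362 more peaks in these genes. That number is the difference of 378 between peaks without a partner (479 control and 101 PTC), less 16 for peaks with one (626 and 642).

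Paired peaks were similar in place but not in width. In the median pair the shorter peak lay wholly (100%) within the longer one. Both ends were within 30 nt of each other in 97 of 454 pairs (21.4%), and 15 pairs had identical blocks. The control peak was wider in 276 pairs (60.8%, lower bound 56.1%), the PTC peak in 132, and 46 were equal. The median width was 361 nt for the control and 271 nt for the PTC peak of a pair. Over 13615 pairs of all genes the control peak was wider in 54.9%, with medians of 361 and 329 nt.

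Overlap rose with the strength of a peak, given by its −log10 FDR (false discovery rate, the authors' own value). Among control peaks it was 22.3% (16.5 to 29.2) below 3, 36.8% from 3 to 5, 54.8% from 5 to 10, 80.9% from 10 to 20 and 97.2% (93.9 to 98.9) at 20 or more. Among PTC peaks it was 60.6% (50.02 to 70.6), 75.6%, 89.9%, 95.6% and 100% (98.1 to 100) in the same classes, the last with 196 of 196 peaks. The order was the same in both lists. In the class of 5 to 10, the overlapped share of control peaks was 54.8% (48.8 to 60.7) in the 99 genes and 66.8% (65.6 to 68.0) in other genes. For PTC peaks below 3 it was 60.6% in the 99 genes and 45.2% (43.7 to 46.8) in other genes. Both classes were picked because they differ clearly. PTC peaks from 3 to 5 differed too, at 75.6% (68.5 to 81.8) in the 99 genes and 65.3% (63.9 to 66.6) in other genes. At 20 or more the shares were 97.2% and 98.3% for control and 100% and 99.3% for PTC, and from 10 to 20 the PTC shares were 95.6% and 95.7%. In these transcripts control peaks also cover more of the length, and the differences were not tested.

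**Figure D3:**
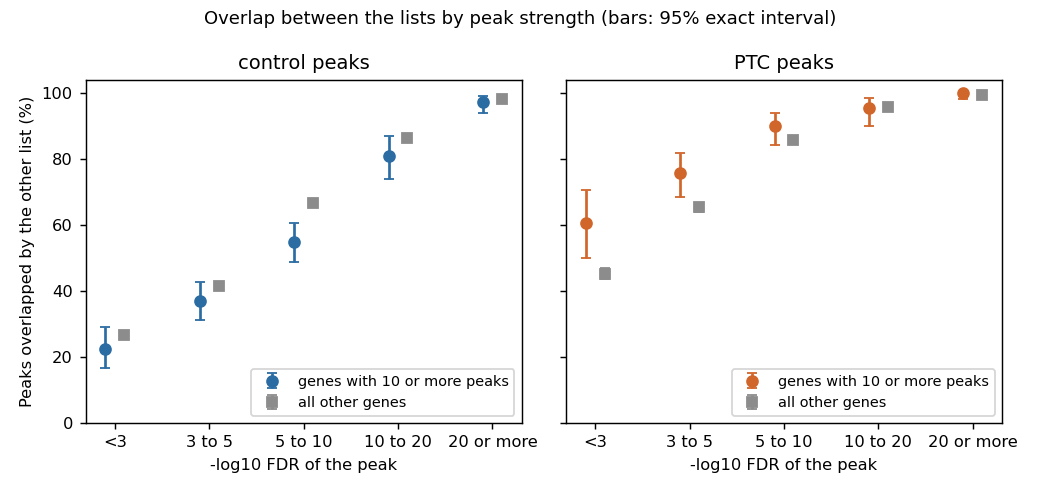
Share of peaks overlapped by the other list (y axis, %) in 5 classes of −log10 FDR (x axis), for control peaks on the left and PTC peaks on the right. Circles are the 99 genes and squares all other genes, with exact 95% intervals that cover counting error only. Circles rise from 22.3% to 97.2% for control and from 60.6% to 100% for PTC.

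Fold enrichment behaved otherwise than FDR. The median fold enrichment, the authors' value within each list, was 2.71 for control and 2.58 for PTC peaks of the 99 genes, against 3.65 and 3.66 over all peaks. A fold of at least 4 was listed for 26.0% and 26.2% of peaks, against 45.05% and 45.2% over all peaks. The median −log10 FDR was 6.05 and 7.38, against 5.47 and 6.61 over all peaks. Values of 5 or more were listed for 58.5% of control and 64.2% of PTC peaks, against backgrounds of 53.4% and 59.8%. The peaks were thus lower in fold and slightly higher in −log10 FDR than the whole lists. Control peaks with a partner reached a median −log10 FDR of 10.95 at 391 nt median width, and those without 3.67 at 181 nt. For PTC peaks the values were 8.98 and 301 nt with a partner and 3.38 and 180 nt without.

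Genes varied widely in overlap, from 30.8% to 94.1% of the peaks of both lists together. Every PTC peak was overlapped in 45 genes (45.5%) and every control peak in 2 (2.02%), Ifi203 and Zfp865. Over all genes with a peak in the list the shares were 64% (PTC) and 39.5% (control), and in genes with at most 5 to 9 peaks 58.8% and 12.1%. These shares depend on the number of peaks per gene, which the rule used. Ubn1, of the HIRA histone chaperone complex, stood at the high end with 9 of 10 control and 7 of 7 PTC peaks overlapped, as did Syncrip with 6 of 7 and 10 of 10. Naa15, a subunit of an N-terminal acetyltransferase, stood at the low end with 2 of 10 and 2 of 3. Taok1, a kinase, had 3 of 10 and 2 of 5, and Clcn3, a chloride and proton exchanger, 4 of 11 and 3 of 9. In Naa15 the strongest peaks were nevertheless paired: a control peak of −log10 FDR 85.2 and 1349 nt at chr3:51472202-51473931 over a PTC peak of 83.2 and 1379 nt at chr3:51472172-51473931. The 8 unpaired control peaks of Naa15 had a −log10 FDR of 1.73 to 5.26.

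Unpaired control peaks stood next to each other in some genes. A run of at least 4 neighbouring control peaks without a partner occurred in 24 genes, and a run of at least 4 such PTC peaks in 2 (Phip and Clcn3). Over all genes with a peak in the list these runs occurred in 2.1% (control) and 0.212% (PTC), and in genes with at most 5 to 9 peaks in 10.1% and 0.709%. Long control runs need many control peaks, which is what chose 94 of the 99 genes, so the counts are a description. The longest was in Gabpb2, which encodes a subunit of the GABP transcription factor. There 8 control peaks in a row, over 4796 nt at the 3′ end (chr3:95181946-95186741, 3′ UTR), had no PTC peak. Their −log10 FDR ran from 1.77 to 11.3 and their fold from 1.72 to 4.67. The next peak upstream, the strongest of Gabpb2, was held in both lists (control −log10 FDR 60.1, 2158 nt, over 3 PTC peaks of up to 95.1). Runs of 6 were found in Etnk1, Phip and Taok1.

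An unpaired control peak lay a median of 569 nt (508 to 629) from the nearest PTC peak of its gene, with 11.1% within 100 nt and 33.0% beyond 1000 nt. An unpaired PTC peak lay 299 nt (208 to 359) from the nearest control peak, with 19.8% within 100 nt and 15.8% beyond 1000 nt. Control peaks were the denser ones in these genes, most of which were chosen through their number of control peaks. The shorter distance to a control peak thus follows in part from the rule. Both distances have no value over all genes beside them and are a description. Among the strongest unpaired peaks, picked after their values were seen, were a control peak of Birc6, a giant inhibitor of apoptosis, and a PTC peak of Phf20l1. The Birc6 peak, at chr17:74528475-74546201 in coding sequence, had a −log10 FDR of 31.6 and a fold of 3.36. The Phf20l1 peak, at chr15:66644739-66645038 in the 3′ UTR, had 18.2 and 3.48.

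Neighbouring peaks of a gene mostly lay under 1000 nt apart. The median gap between them along the joined exons was 403.5 nt (359 to 449, 1006 gaps) for control and 568 nt (478 to 658, 644 gaps) for PTC peaks. Over all genes with at least 2 peaks the medians were 417 and 448 nt, and in genes with at most 5 to 9 peaks 388 and 478 nt. The PTC gap was above both medians, though its lower bound equals that of genes with at most 5 to 9 peaks. As 77 of the 99 genes were chosen through the control list only, fewer and more widely spaced PTC peaks follow in part from the rule. Gaps above 1000 nt made up 23.2% of control and 33.5% of PTC gaps, and gaps below 100 nt 10.6% and 9.63%. The longest was 6805 nt in control and 15889 nt in PTC. In genomic distance, introns included, the medians were 1048.5 and 1494 nt.

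**Figure D4:**
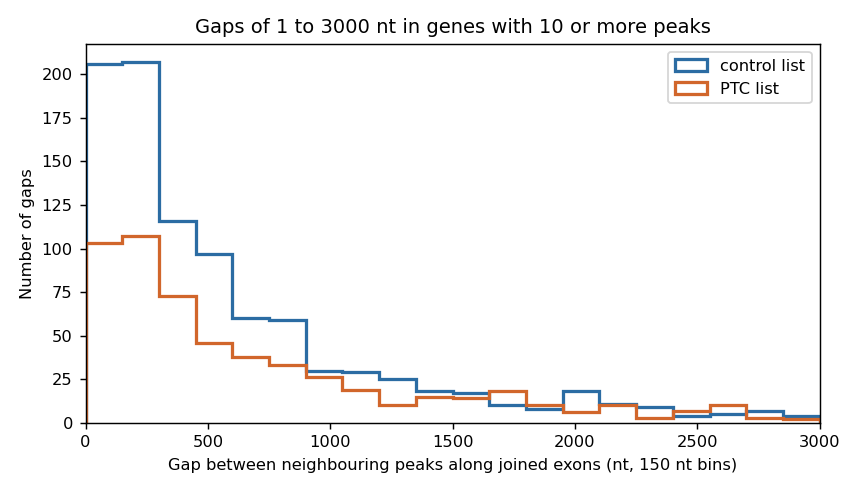
Number of gaps between neighbouring peaks (y axis) by gap length along joined exons (x axis, nt, 150 nt bins) in the control and the PTC list, for gaps of 1 to 3000 nt in the 99 genes. Both curves are highest below 300 nt, and the control curve stands above the PTC curve there.

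Most gaps and widths fell on a grid of about 30 nt. Of peaks of 1 block, 94.4% in control and 94.98% in PTC had a width that was a multiple of 30 nt or 1 nt more, against 72.4% and 69.5% over all genes. Of positive gaps, 84.3% and 73.7% were 1 or 2 nt short of a multiple of 30, against 62.3% and 57.8% over all genes. The smallest positive gap was 58 nt in both lists in the 99 genes, and 13 (control) and 44 nt (PTC) over all genes. Gaps of 0 or less, where neighbours touched or overlapped within a list, numbered 10 in each.

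Peaks that overlap within a list raised the counts of 5 genes, and 2 of these fell below 10 once such peaks were joined. Egr3, a transcription factor induced by T cell receptor signals, had 10 control and 8 PTC peaks in a transcript of 4406 nt, but most were shifted copies of each other, such as control peaks at chr14:70078977-70079484 and chr14:70078994-70079502. Joining overlapping peaks left 5 control and 4 PTC peaks in Egr3. Ccnt1, the cyclin of the elongation factor P-TEFb, fell from 10 to 9 and from 8 to 7. Foxp1 fell from 12 to 10 control and from 5 to 3 PTC peaks, Clip1 from 11 to 10 and from 10 to 8, and Kif5b from 11 to 10 in control. With these 3, 97 genes still had 10 or more peaks after joining.

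Spacing differed widely between genes. The smallest median control gaps were 59 nt in Egr3, 118 nt in Ccnt1 and 148 nt in Ifi203, a gene of the interferon-inducible family. The medians of Egr3 and Ccnt1 include negative gaps, where peaks overlap within the list, and are thus not plain spacing between separate peaks. The largest were 1228 nt in Mycbp2, a ubiquitin ligase, and 1077 nt in Atp2b1, a plasma membrane calcium pump. Mycbp2 has 86 merged exons and Atp2b1 20, while the 3 genes with the smallest medians have 4 to 10. These genes are extremes, and others break this order. Rnf213, with 68 merged exons, had a median control gap of 149 nt, and Gabpb2, with 9, had 539 nt. In Brca2 the 10 PTC peaks sat at most 478 nt apart, while the longest control gap was 1917 nt.

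In some genes many peaks shared 1 exon. The counts of such genes have no share over all genes beside them and are a description. At least 50% of the peak midpoints of both lists lay in 1 merged exon in 32 genes, and all of them did in Egr3 (18 midpoints, 3876 nt), Phc3 (16 midpoints, 8120 nt), Zfp865 (16 midpoints, 7778 nt) and Arhgap31 (16 midpoints, 5476 nt). Phc3 belongs to the Polycomb complex that also holds BMI1, and its 11 control and 5 PTC midpoints were all in the 3′ UTR. In Brca2, 17 of 23 midpoints were in an exon of 4809 nt, and its 12 control and 10 PTC coding midpoints had no counterpart in the 3′ UTR. Over the 99 genes, exons of at least 1000 nt held 60.6% of control and 64.7% of PTC midpoints, near the backgrounds of 62.5% and 65.3%. Of midpoints in coding sequence, 33.5% and 42.8% were in such exons, against 40.5% and 50.4% over all genes.

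Peaks of several exon blocks were common. Of the control peaks, 36.7% (33.9 to 39.7) had 2 or more blocks, and of the PTC peaks 33.0% (29.6 to 36.5), against 27.8% and 23.5% over all peaks and 27.7% and 24.3% in genes with at most 5 to 9 peaks. Peaks of 3 or more blocks made up 15.6% and 11.04%, and of 4 or more 5.61% and 3.10%. The share of peaks of several blocks was above its background in both lists, in genes that also have more exons. Block borders matched an annotated intron at 89.8% of control and 87.5% of PTC junctions.

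**Figure D5:**
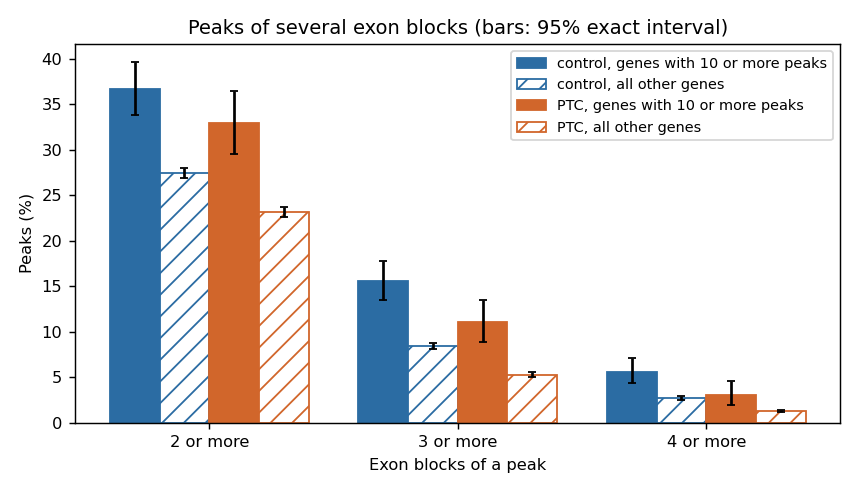
Share of peaks (y axis, %) with at least 2, 3 or 4 exon blocks (x axis), for control and PTC peaks of the 99 genes (solid) and of all other genes (hatched), with exact 95% intervals that cover counting error only. The solid bars, at 36.7% and 33.0% for 2 or more blocks, stand above the hatched bars.

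The overlapped share was 60.8% for control peaks of several blocks and 54.2% for those of 1 block, and 93.5% and 82.9% for PTC peaks. Peaks of several blocks had a median −log10 FDR of 8.50 (control) and 11.8 (PTC) against 5.05 and 6.07. Over 50% of the peaks had several blocks in 23 genes, and none had in 4 genes, Egr3, Zfp865 and Cbl among them. Both counts of genes have no share over all genes beside them and are a description. Macf1 had 22 such peaks of 43, and Rnf213 and Mdn1, a ribosome assembly factor with 102 merged exons, had 17 each. Over pairs of 1 control and 1 PTC peak, the block number was the same in 71.6%, higher in control in 20.3% and higher in PTC in 8.15%.

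Along the transcript, 51.1% of control and 51.5% of PTC midpoints were in coding sequence, 33.5% and 35.1% in a 3′ UTR, and 4.43% and 4.71% in a 5′ UTR. The rest, 10.95% and 8.61%, were in other exons, such as those of noncoding transcripts of the gene. Over all genes, coding sequence held 42.1% and 40.9% and 3′ UTRs 46.0% and 49.7%. Within 200 nt of a stop codon lay 6.61% (5.21 to 8.24) of control and 9.15% (7.18 to 11.5) of PTC midpoints, against backgrounds of 18.6% and 23.3%. The share in coding sequence was thus above, and the share near a stop codon below, that of all genes, in transcripts that are also longer. Split into 4 equal stretches from 5′ to 3′, the joined exons held 22.4%, 23.6%, 24.9% and 29.05% of control midpoints, and 21.7%, 24.1%, 23.7% and 30.6% of PTC midpoints. In 3 genes, Mbnl1, Phc3 and Pitpnc1, no midpoint lay in coding sequence (26, 16 and 15 midpoints). This count has no share over all genes beside it. In Mbnl1, 3 of 14 control midpoints were in a 3′ UTR and 3 in a 5′ UTR. Of its 12 PTC midpoints these were 3 and 4, and the rest in both lists were in other exons.

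GGACT was searched in windows of 101 nt around the midpoints, on the transcribed strand. It was present in 9.77% (8.09 to 11.7) of control and 10.4% (8.27 to 12.8) of PTC windows, near or below the backgrounds of 11.5% and 12.9%. Windows with DRACH were 87.6% and 90.7%, against 87.0% and 88.7% over all genes. Over whole peaks, GGACT occurred 1.01 times per kb in control peaks (458 occurrences) and 1.07 times per kb in PTC peaks (358), against 0.855 per kb in the joined exons of the 99 genes (1244). Of these, 301 were in peaks of both lists, as in the sequences printed above. No match in a window says only that the letters are not there, and a match is not a methylated site.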

How the data were processed

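Methylated RNA immunoprecipitation was sequenced in control and PTC-treated T cells. The authors deposited 1 peak list per condition and a summary table. The submitters' processing notes name BWA 0.7.12, MACS2 2.1.0 and GRCm39 with no role. Which program called the peaks, at which threshold, and any pooling of samples were not given in the sources used here. Per the file headers, each deposited peak has a p-value, an FDR with log10 forms of both, and a fold enrichment (a linear ratio). The FDR was used as −log10, and the highest FDR was 4.27% (control) and 4.68% (PTC). An FDR too small to be listed (2 control and 3 PTC peaks here) ranked highest. Fold and FDR only describe or filter peaks within a list. The authors' deposited summary table gives a count of 19420 control and 15855 PTC peaks, fewer than the lists, the percent of reads in peaks, and fragment lengths of 213 and 211 nt. Columns of values per sample that were not used numbered 0.

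Of the 1105 control and 743 PTC peaks, 100% lay inside the same gene of GENCODE M21, so coordinates, counted from 1, are read as GRCm38, not GRCm39. Peaks were compared over exon blocks on 1 strand, and positions were read along joined exons. Midpoints went to coding sequence first, then to a 3′ UTR, a 5′ UTR or another exon. Python 3.11.15, pandas 2.3.3, numpy 2.4.6, scipy 1.17.1 (exact Clopper-Pearson intervals, exact binomial intervals of medians) and matplotlib 3.10.9 were used, and overlap and position functions were tested on simulated data. Members and gene lists were chosen with earlier results of these data known. Named genes, 34 in all, were those with the most peaks per list, the largest excess in a list, the highest and lowest overlap, the smallest and largest gaps, the most midpoints in 1 exon, the most peaks of several blocks, and the most peaks within each gene list. Other genes were named after their values were seen, and some genes that the rule names are not reported here. No p-value was computed. Alternatives covered the overlap rule, strength filters, list length, strand, the threshold, windows and the annotation.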

Additional observations from a re-analysis of the deposited data

How the results depend on the processing

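Of 94 alternative values of 14 results, 84 planned and 10 chosen after seeing the data, 31 moved by less than their interval or 1.5 times, and 63 moved further. At a fold of at least 4 the control gap was slightly the longer, with intervals that overlap widely (below). The cause was not tested. No paired analysis was possible because the lists hold no values per sample.

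Overlap of control and PTC peaks was 53.5% and 82.5% when 50% of the shorter peak had to be shared, 40.7% and 60.6% when 50% of each had to be, and 36.1% and 53.8% for midpoints within 100 bp. It was 48.8% and 72.3% at a fold of at least 4 in both lists, and 63.1% and 82.2% at equal list length. At −log10 FDR of at least 5 the control share was 63.0% with both lists filtered, and the shares were 74.8% and 95.4% with only the list itself filtered (chosen after seeing the data).

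Median gaps were 1048.5 (control) and 1494 nt (PTC) in genomic distance and 868 and 1049.5 nt between midpoints. They were 509 and 808 nt at −log10 FDR of at least 5 and 1435 and 1392 nt at a fold of at least 4. With a threshold of 12 peaks per gene the control gap was 478 nt. With GENCODE basic transcripts, chosen after seeing the data, the median gaps were 301.5 and 456.5 nt. These transcripts leave out 149 control and 86 PTC midpoints. The PTC gap was thus the longer one except at a fold of at least 4. There the intervals were 1076 to 1826 nt (control, 201 gaps) and 1048 to 2218 nt (PTC, 118 gaps). They overlap widely, so the order at that filter cannot be told.

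Peaks of several blocks were 45.4% and 41.3% at −log10 FDR of at least 5, 29.97% (control) at a fold of at least 4, 31.9% and 27.8% with a threshold of 8, and 40.9% (control) with 12. Genes with more control peaks numbered 54 at a fold of at least 4, 264 of 312 with a threshold of 8 and 33 of 33 with 12. Genes with more PTC peaks numbered 11 at −log10 FDR of at least 5, 10 at a fold of at least 4, 19 at equal list length, 30 with a threshold of 8 and 0 with 12.

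Midpoints near a stop codon were 2.99% and 4.85% within 100 nt and 13.4% and 15.9% within 400 nt. They were 8.67% (control) at −log10 FDR of at least 5, 12.8% (PTC) at a fold of at least 4 and 8.42% (control) with a threshold of 8. Long exons held 71.3% and 77.4% of midpoints when defined by 400 nt, 51.3% and 52.5% by 2000 nt, 74.6% and 77.9% at a fold of at least 4, 65.8% and 69.9% with a threshold of 8, 55.9% and 60.6% with 12, and 50.7% and 55.6% with basic transcripts. Windows with GGACT were 4.89% and 5.65% with 25 nt on either side, 18.9% and 19.1% with 100 nt, and 13.2% and 13.8% at a fold of at least 4.

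With 1 list per condition the spread between samples is unknown, and so is read depth. Peaks under the lists' own FDR limit are not seen here.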
